A study of Homo sapiens with 8 samples.

Results

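In ES2 cells labelled as KDM1A knockout, transcripts of several genes that YAP and TAZ are known to switch on were lower than in control cells, with ANKRD1 at 0.550% of its control level and CTGF at 38.1%, while CYR61, another classical target, was at 94.7% and did not pass the test. The genes described here are 36 members of the Hippo pathway and its output, of 23228 genes listed in the count tables. They were fixed by name and matched by gene symbol, and all 36 were found. By role they comprise 6 kinases and scaffolds of the kinase core, 9 upstream regulators and junction proteins, 8 coactivators and DNA-binding partners, and 13 targets. Of these, 35 had enough reads to be tested among 13498 genes; AMOT, a junction protein that binds YAP, had 0 or 1 read in every library and was not tested.

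RNA was sequenced from ES2, an established human ovarian cancer line, in 8 libraries. There were 4 groups of 2: control cells with vehicle, KDM1A knockout cells with vehicle, control cells with LY500307, and knockout cells with LY500307, the drug being given at 5 µM and all cells being harvested after 48 h. KDM1A is an enzyme that strips methyl groups off histone H3, and LY500307 is an agonist of oestrogen receptor beta. The sources used here do not say whether the knockout cells were a clone or a pool, and an effect of losing KDM1A and any further difference of the knockout population cannot be told apart. Nor do they say that the 2 libraries of a group came from separate cultures, so the p-values measure the spread between these libraries, which may be technical. The estimate of that spread for a gene is also drawn largely from other genes (30.1 prior against 4 residual degrees of freedom).

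The Hippo pathway is a kinase cascade that limits growth and reads cell contact, shape and tension. The kinases MST1 and MST2, encoded by STK4 and STK3, act with the scaffold SAV1 to activate LATS1 and LATS2, which phosphorylate YAP and TAZ (encoded by YAP1 and WWTR1) and keep them out of the nucleus. When the cascade is off, YAP and TAZ enter the nucleus, bind TEAD factors on DNA and switch on target genes, often from sites shared with AP-1. Much of this control acts on the proteins, by phosphorylation, location and turnover, which RNA sequencing does not measure.

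TEAD factors recognise the letters CATTCC, or GGAATG on the opposite strand, and AP-1 recognises TGANTCA, where N is any base. The 250 bases before a transcript start were searched on both strands for these letters in the 27 members with an entry in the RefSeq promoter table (assembly GRCh38.p14). Only the first listed start of each member was used. For some members, RBMS3, NT5E and RASSF1 among them, these bases lay inside the annotated gene, and other starts were not searched. CYR61, CRIM1, ARHGEF17, DLC1, ASAP1, TEAD1, TEAD4, FAT4 and STK3 were not matched to an entry and were not searched. The TEAD letters occurred in 6 of the 27 members and in 11.9% of all 35116 promoters in the table, which were not limited to 1 entry per gene. The 6 were the targets ANKRD1, CTGF and NUAK2, the regulators PTPN14 and RASSF1, and YAP1. The AP-1 letters occurred in 1 of 27 members, ANKRD1, and in 6.57% of all promoters, and both motifs occurred together in 1.06% of all promoters. By role, 3 of 8 matched targets, 2 of 8 upstream regulators, 1 of 6 coactivators and partners and 0 of 5 genes of the kinase core held the TEAD letters. A match describes the letters only and is not evidence that a factor binds there. The 3 target promoters that held the TEAD letters are given here because their genes were all lower in knockout cells; each was matched without a mismatch to hg19, lies on the minus strand and runs 5′ to 3′ towards the gene start, with the motif letters in capitals.
ANKRD1 (chr10:92680845-92681094): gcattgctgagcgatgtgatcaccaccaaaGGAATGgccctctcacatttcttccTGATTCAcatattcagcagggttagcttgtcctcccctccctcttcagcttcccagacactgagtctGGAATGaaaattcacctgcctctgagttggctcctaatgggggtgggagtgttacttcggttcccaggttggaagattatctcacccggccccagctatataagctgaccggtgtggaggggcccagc
CTGF (chr6:132272513-132272762): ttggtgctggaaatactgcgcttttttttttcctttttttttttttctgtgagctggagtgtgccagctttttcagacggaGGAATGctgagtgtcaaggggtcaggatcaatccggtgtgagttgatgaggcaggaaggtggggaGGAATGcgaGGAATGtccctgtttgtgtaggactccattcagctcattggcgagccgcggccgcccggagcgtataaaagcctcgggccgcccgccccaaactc
NUAK2 (chr1:205290874-205291123): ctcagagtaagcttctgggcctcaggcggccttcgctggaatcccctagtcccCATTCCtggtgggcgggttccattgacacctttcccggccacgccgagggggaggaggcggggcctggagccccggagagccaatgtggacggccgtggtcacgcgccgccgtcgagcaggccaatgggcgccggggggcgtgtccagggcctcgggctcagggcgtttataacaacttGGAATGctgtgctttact
In ANKRD1 the TEAD letters began 220 and 128 bases before the start, with the AP-1 letters between them at 195 bases. CTGF held 3 copies, at 169, 104 and 95 bases, the last pair being separated by 3 bases. NUAK2 held 2 copies, at 197 and 18 bases, on opposite strands. The log2 changes of these 3 genes in knockout cells with vehicle were -7.51, -1.39 and -0.42. A decrease was not confined to searched promoters with these letters. The matched targets AXL (-0.76), FJX1 (-0.66), NT5E (-0.61) and MYOF (-0.58) held neither motif in the stretch searched and were also lower. RBMS3 (1.16) held neither in its stretch and was higher. Of the other members with the TEAD letters, PTPN14 (-0.37) and YAP1 (-0.24) were lower and RASSF1 (0.24) was higher. Any link of the letters to these changes was not tested.

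**Figure D1:**
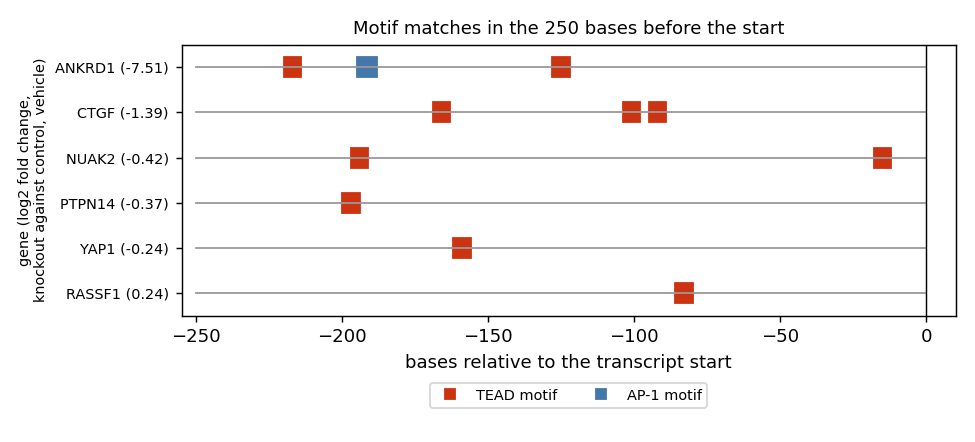
Position of TEAD and AP-1 motif letters in the 250 bases before the first listed transcript start (x axis, bases relative to that start) for the member promoters that hold any. Rows are genes, with their log2 change in knockout against control cells with vehicle in parentheses. ANKRD1 has 2 TEAD matches and 1 AP-1 match, CTGF 3 TEAD matches and NUAK2 2.

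Each library held between 24348937 and 30131097 reads assigned to genes. KDM1A itself was at 220.0 and 219 CPM (the normalised read count used throughout: the reads of a gene relative to all gene reads of its library, after scaling) in control cells with vehicle, and at 75.6 and 77.8 CPM in knockout cells with vehicle. It was at 238 and 241 CPM in control cells and 72.0 and 71.6 CPM in knockout cells with LY500307. The knockout libraries thus kept 34.9% and 29.9% of the control level of KDM1A transcript. That the protein was lost rests on the labels, as RNA sequencing does not measure it. ESR2, which encodes the receptor that LY500307 activates, had 8 to 12 reads per group and was not tested. Markers of the line were present but at levels that differed between the populations. With vehicle, KRT7 was at 252 and 262 CPM in control and 358 and 370 CPM in knockout cells, KRT18 at 334 and 320.2 against 163 and 159 CPM, KRT8 at 25.1 and 29.4 against 7.49 and 7.39 CPM, and the mesenchymal marker VIM at 8711 and 8465 against 12039 and 12399 CPM. PAX8 was at 1.66 and 2.30 against 5.75 and 6.06 CPM and WT1 at 1.92 and 1.58 against 5.39 and 5.05 CPM, whereas the ovarian carcinoma marker MUC16 was at 0 in 7 of 8 libraries and EPCAM did not exceed 2.13 CPM. The summed level of haematopoietic markers did not exceed 0.210 CPM. Among 4 endothelial markers the sum was 103 to 105 CPM in control and 32.5 to 32.6 CPM in knockout libraries with vehicle, nearly all of it CDH5, with PECAM1 and VWF near 0. The part of these marker differences in the results was not tested.

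With vehicle, knockout against control, 24 of the 35 tested members were lower and 5 higher (edgeR quasi-likelihood test, adjusted p at or below 0.05 over all 13498 genes), where 33.3% of all genes were lower and 30.7% higher. With at least a 2-fold change required, 4 members were lower and 1 higher, against 7.93% and 5.95% of all genes. The knockout libraries lay wholly below the control libraries for 27 members and wholly above for 7, where the libraries of 81.3% of all genes did not overlap. The median log2 change over the members was -0.27, against -0.01 over all genes tested. Of the 13 targets, 10 were lower and 1 higher, with a median of -0.58, and of the 22 other members 14 were lower and 4 higher, with a median of -0.22. Under LY500307 the same comparison gave 24 members lower and 6 higher, against 33.6% and 32.6% of all genes, and a median of -0.35 against -0.01. At 2-fold, 4 members were lower and 0 higher (8.61% and 5.47% of all genes), and the libraries lay apart for 26 members downwards and 7 upwards (81.3% of all genes in either direction). There, 11 of 13 targets were lower and 1 higher, with a median of -0.65, and 13 of the 22 other members were lower and 5 higher, with a median of -0.25. A lower level in these bulk samples may mean fewer cells that carry a transcript or less of it in each cell, which cannot be told apart. The call of lower was made under both treatments for 22 members, 10 of them targets, where 28.6% of all genes were called lower under both, and that of higher for 5 members, where 26.5% of all genes were called higher under both. These 2 comparisons share no library.

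ANKRD1, a muscle ankyrin-repeat protein and widely used YAP readout, was at 436 and 432 CPM in control cells with vehicle and at 2.88 and 1.97 CPM in knockout cells. With LY500307 it was at 659 and 583 CPM in control cells and at 2.85 and 3.18 CPM in knockout cells. All 4 knockout libraries were far below every control library. The fitted decrease was 182-fold with vehicle (log2 change -7.51, n = 2 per group, edgeR adjusted p = 6.05e-37) and 205-fold with LY500307 (-7.68, edgeR adjusted p = 5.96e-38), the smallest p-value of any member in either comparison. On leaving out each library the log2 change ran from -7.78 to -7.24 with vehicle and from -7.77 to -7.59 with LY500307. The knockout groups held only 130 and 167 reads of ANKRD1. The standard error derived from the test statistic is too small for such a change and is not given.

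CTGF, a secreted matricellular protein, was at 1558 and 1514 CPM in control cells and at 585 and 586 CPM in knockout cells with vehicle. Its levels with LY500307 were 1348 and 1347 CPM in control cells and 452 and 430.4 CPM in knockout cells. The groups were far apart under both treatments, the log2 change being -1.39 ± 0.04 (standard error, as after each ± below, edgeR adjusted p = 4.13e-26) with vehicle and -1.61 ± 0.04 (edgeR adjusted p = 6.57e-28) with LY500307. CRIM1, a transmembrane protein that binds growth factors, was at 301 and 307 CPM in control and 80.3 and 83.2 CPM in knockout cells with vehicle. With LY500307 it was at 271 and 270.0 CPM in control and 75.3 and 74.7 CPM in knockout cells. Its decrease was larger than that of CTGF, at log2 -1.89 ± 0.05 (edgeR adjusted p = 3.03e-27) with vehicle and -1.85 ± 0.05 (edgeR adjusted p = 5.54e-27) with LY500307.

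CYR61, a matricellular protein of the same family as CTGF, did not share this decrease. It was at 1406 and 1373 CPM in control and 1345 and 1288 CPM in knockout cells with vehicle, and at 1390.1 and 1379 CPM in control and 1432 and 1407 CPM in knockout cells with LY500307. The knockout libraries lay just below the control libraries with vehicle and just above them with LY500307. The log2 difference was -0.08 (95% interval -0.15 to -0.00, edgeR adjusted p = 0.0662) with vehicle and 0.04 (-0.04 to 0.11, edgeR adjusted p = 0.402) with LY500307. Both intervals leave out a decrease of the size seen for CTGF. Over the alternative analyses the adjusted p with vehicle ranged from 0.0148 to 0.456, and it was 0.0412 without replicate 1 of the vehicle-treated knockout cells.

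AXL, a receptor tyrosine kinase, was at 847 and 865 CPM in control and 496 and 513 CPM in knockout cells with vehicle, and at 749 and 768 against 432 and 452 CPM with LY500307. The log2 change was -0.76 (edgeR adjusted p = 6.63e-18) and -0.78 (edgeR adjusted p = 3.41e-18). MYOF, a membrane repair protein, was at 1969.6 and 1912 CPM in control and 1318 and 1281 CPM in knockout cells with vehicle, a log2 change of -0.58, and the change with LY500307 was -0.65. FJX1, a secreted kinase-like protein, was at 145 and 158 against 93.8 and 98.2 CPM with vehicle, with log2 changes of -0.66 and -0.50. These 3 targets kept between 58.2% and 70.5% of their control level under both treatments, with no overlap of libraries. NT5E, the ecto-5′-nucleotidase CD73, fell by 0.61 on the log2 scale with vehicle and by 0.75 with LY500307. The kinase NUAK2 was low in these cells, at 15.6 and 16.2 CPM in control and 11.4 and 12.3 CPM in knockout cells with vehicle, and its log2 changes were -0.42 (edgeR adjusted p = 0.000828) and -0.68 (edgeR adjusted p = 1.07e-06). ASAP1, an Arf GTPase-activating protein, fell by 0.36 and 0.40.

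The remaining targets were DLC1, ARHGEF17 and RBMS3. DLC1, a GTPase-activating protein, was called lower with small log2 changes of -0.13 and -0.11. ARHGEF17, a guanine nucleotide exchange factor, was called lower only with LY500307 (log2 change -0.41, edgeR adjusted p = 0.000228) and was at -0.13 (edgeR adjusted p = 0.220) with vehicle; the difference between them did not pass the interaction test. RBMS3, an RNA-binding protein, was the only target that was higher, at 10.4 and 11.3 CPM in control and 24.2 and 24.5 CPM in knockout cells with vehicle, and at 8.60 and 9.49 against 16.0 and 16.6 CPM with LY500307. All knockout libraries were above all control libraries, with log2 changes of 1.16 ± 0.10 (edgeR adjusted p = 3.18e-12) and 0.85 ± 0.10 (edgeR adjusted p = 8.08e-09). The DLC1 calls were the least firm: with vehicle the edgeR adjusted p ranged from 0.00132 to 0.0752 over the alternatives and was 0.0651 without control replicate 2 and 0.0752 with library totals. With LY500307 it ranged from 0.00662 to 0.115 and was 0.0993 without control replicate 1, 0.0823 without control replicate 2, 0.0729 without knockout replicate 2 and 0.115 with library totals.

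**Figure D2:**
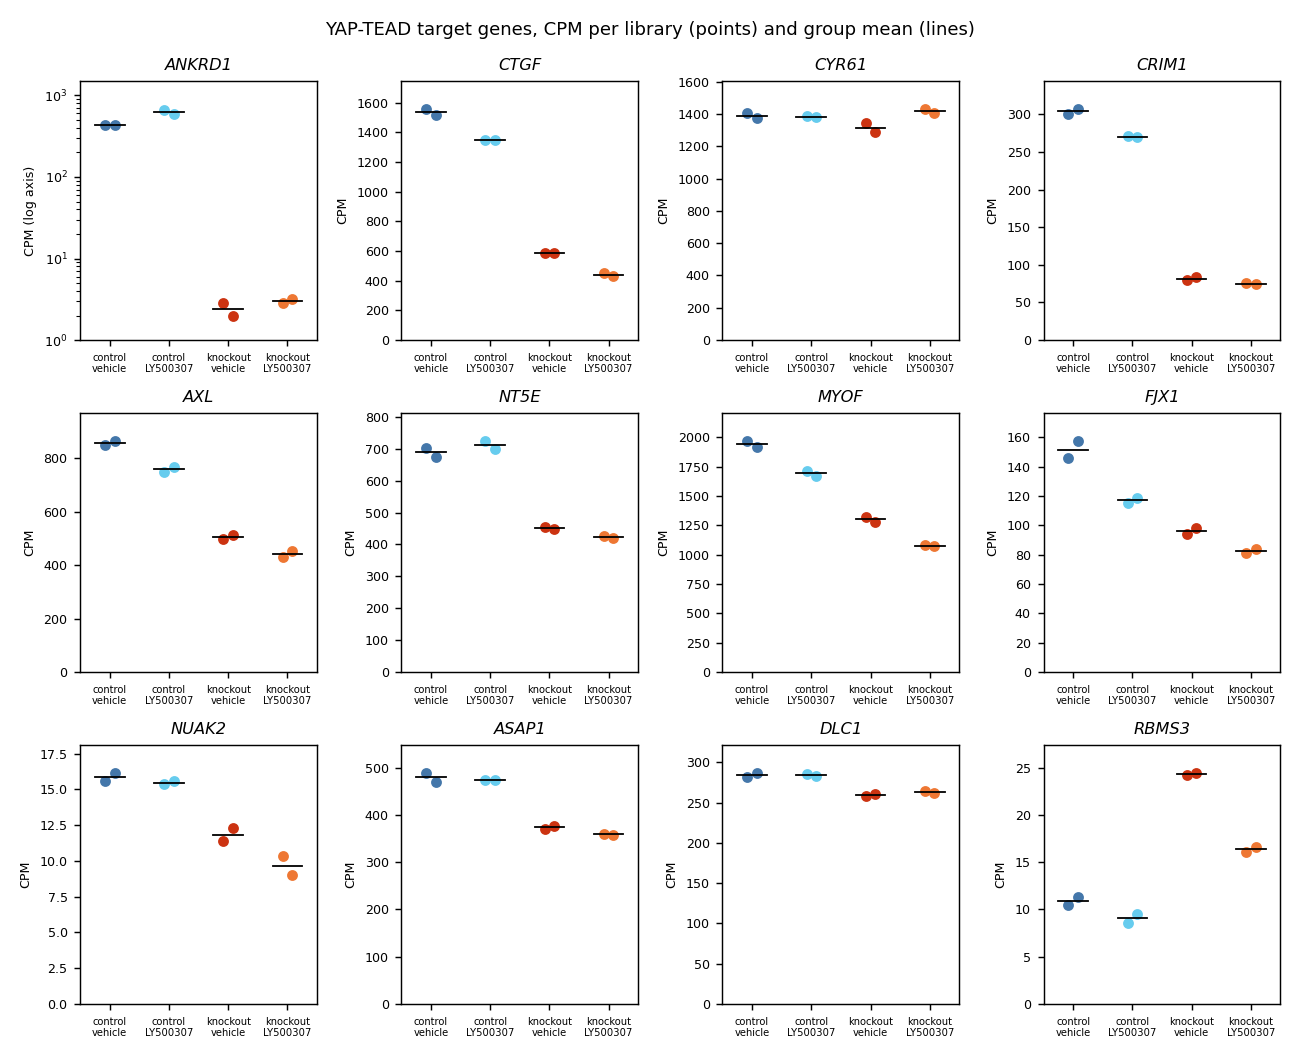
Level of 12 of the 13 target genes, all but ARHGEF17, in each library (y axis, CPM, linear from 0 except for the log axis of ANKRD1); points are libraries and lines group means. ANKRD1 drops from 432 to 659 CPM in control cells to 1.97 to 3.18 CPM in knockout cells, CYR61 stays between 1288 and 1432 CPM, and RBMS3 is higher in knockout cells.

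YAP1 was at 854 and 837 CPM in control and 726 and 705 CPM in knockout cells with vehicle, and at 819 and 761 CPM in control and 652 and 649 CPM in knockout cells with LY500307. The groups did not overlap, and the log2 change was -0.24 ± 0.04 (edgeR adjusted p = 4.26e-06) with vehicle and -0.28 (edgeR adjusted p = 2.87e-07) with LY500307. WWTR1, which encodes TAZ, was at 75.3 and 74.4 CPM in control and 56.6 and 59.4 CPM in knockout cells with vehicle, and at 78.6 and 77.0 against 55.2 and 57.1 CPM with LY500307. Its log2 changes were -0.37 (edgeR adjusted p = 3.11e-06) and -0.47 (edgeR adjusted p = 2.17e-08). WWTR1 overlaps its antisense gene WWTR1-AS1 and VGLL4 overlaps ATG7; no source used here gives the strand setting of the counting, and reads from such partners cannot be told apart. Per kilobase of annotated exon, YAP1 was at 133.9 CPM in control cells with vehicle and WWTR1 at 8.96 CPM.

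Among the TEAD factors, TEAD4 and TEAD1 had the highest levels per kilobase in control cells with vehicle, at 20.8 and 16.0 CPM, with TEAD3 at 4.12 and TEAD2 at 1.97 CPM. The lengths used, 2275 bases for TEAD4 and 10700 for TEAD1, join the exons of all annotated transcripts. The order of these 2 may differ for the transcripts expressed, and without division by length TEAD1 was the higher. Both TEAD4 and TEAD1 were lower in knockout cells. TEAD1 was at 174 and 168 CPM in control and 135 and 131 CPM in knockout cells with vehicle, and at 168 and 167 against 126 and 136 CPM with LY500307, with log2 changes of -0.36 and -0.35. TEAD4 was at 48.6 and 46.2 against 30.3 and 31.6 CPM with vehicle, and at 44.2 and 44.4 against 32.4 and 34.4 CPM with LY500307. That was a log2 change of -0.61 (edgeR adjusted p = 4.79e-09) and -0.41 (edgeR adjusted p = 6.27e-06). TEAD2, at 5.26 to 6.26 CPM in all libraries, did not pass the test (log2 differences -0.14 and -0.19). TEAD3 was at 12.2 and 12.9 against 14.1 and 13.1 CPM with vehicle, a difference of 0.11 that did not pass (edgeR adjusted p = 0.355). With LY500307 it was at 17.1 and 18.5 against 14.1 and 15.7 CPM, a log2 change of -0.25 (edgeR adjusted p = 0.0237), which ranged from 0.0160 to 0.181 over the alternatives and was not called without control replicate 2 (0.181) or knockout replicate 1 (0.178), nor with DESeq2 (0.0716) or library totals (0.0501).

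VGLL3 and VGLL4 are cofactors that bind TEAD in place of YAP, VGLL4 being known as a repressor of TEAD output, and they moved in opposite directions. VGLL3 was at 92.5 and 91.7 CPM in control and 71.1 and 74.5 CPM in knockout cells with vehicle, and at 114 and 102 against 71.9 and 68.6 CPM with LY500307. It fell by 0.34 (edgeR adjusted p = 9.64e-06) and by 0.62 (edgeR adjusted p = 3.02e-11) on the log2 scale. VGLL4 was at 52.2 and 52.6 against 68.0 and 69.6 CPM with vehicle, and at 56.4 and 62.4 against 71.2 and 74.6 CPM with LY500307. It rose by 0.39 (edgeR adjusted p = 2.48e-06) and 0.30 (edgeR adjusted p = 0.000102). In all, 5 of the 8 coactivators and partners were lower and 1 higher with vehicle, and 6 lower and 1 higher with LY500307. The shares of all genes were 33.3% lower and 30.7% higher with vehicle, and 33.6% lower and 32.6% higher with LY500307.

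**Figure D3:**
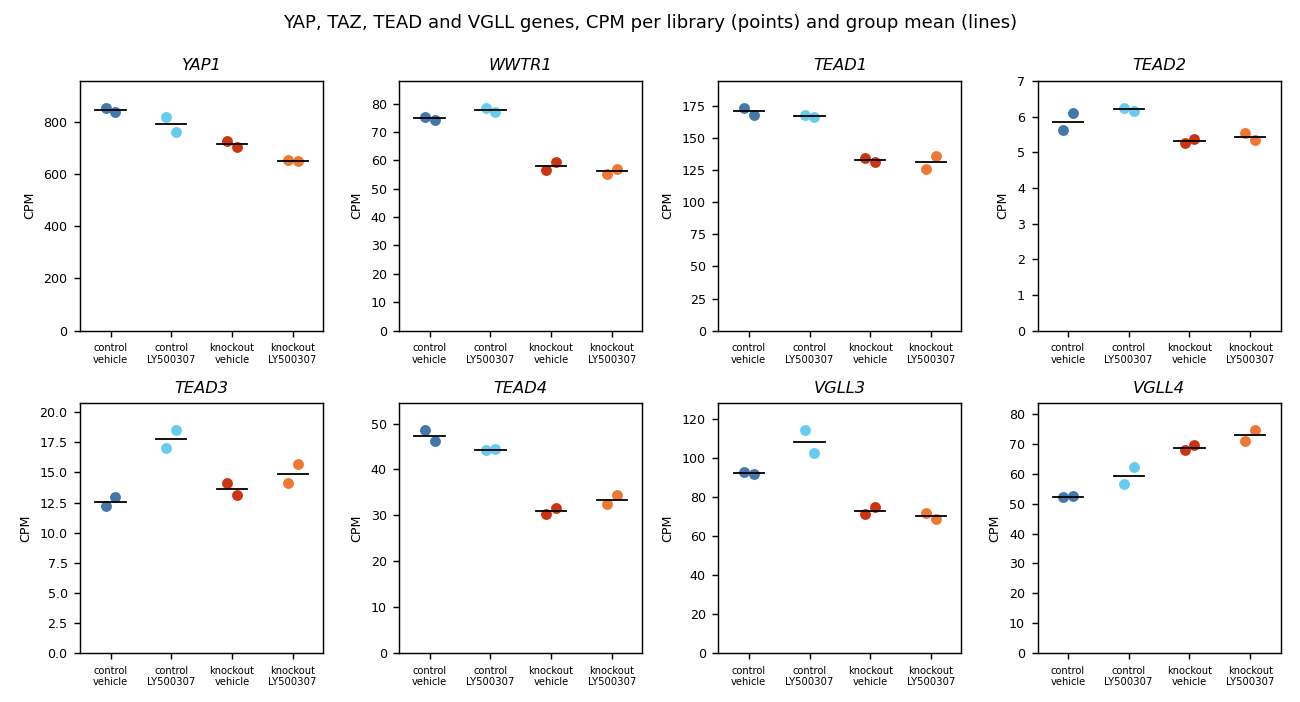
Levels of YAP1, WWTR1, TEAD1, TEAD2, TEAD3, TEAD4, VGLL3 and VGLL4 in each library (y axis, CPM), by group; points are libraries and lines group means. YAP1, WWTR1, TEAD1 and TEAD4 lie lower in knockout than in control libraries under both treatments, and TEAD3 is highest in control cells with LY500307.

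The kinase core moved in both directions, with 3 of 6 lower and 2 higher with vehicle and 2 lower and 3 higher with LY500307, where 33.3% and 30.7%, and 33.6% and 32.6%, of all genes were. STK3 (MST2) was at 36.1 and 30.8 CPM in control and 17.3 and 16.0 CPM in knockout cells with vehicle, and at 28.7 and 29.8 against 14.4 and 13.7 CPM with LY500307. Its log2 change was -1.01 ± 0.09 (edgeR adjusted p = 8.88e-12) and -1.06 ± 0.09 (edgeR adjusted p = 3.84e-12), the only 2-fold change in the core. On leaving out each library, STK3 ran from -1.12 to -0.89 with vehicle, so its 2-fold size there was not kept throughout. Its close relative STK4 (MST1) rose by 0.24 and 0.30, and the scaffold SAV1, which joins these kinases to LATS, rose by 0.49 (edgeR adjusted p = 1.12e-06) and 0.39 (edgeR adjusted p = 2.05e-05).

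LATS1 was at 28.0 and 28.6 CPM in control and 28.7 and 32.9 CPM in knockout cells with vehicle, a log2 difference of 0.13 that did not pass (edgeR adjusted p = 0.193). With LY500307 it was at 27.8 and 29.4 against 33.0 and 37.2 CPM, a log2 change of 0.30 (edgeR adjusted p = 0.00195). LATS2, itself a known YAP target as well as a kinase of the cascade, was at 25.8 and 26.3 against 21.9 and 21.7 CPM with vehicle, and at 29.4 and 25.9 against 23.2 and 23.3 CPM with LY500307. It fell by 0.26 (edgeR adjusted p = 0.00980) and by 0.25 (edgeR adjusted p = 0.00966). TAOK1, a kinase that activates MST1 and MST2, fell by 0.15 with vehicle (edgeR adjusted p = 0.0214) and was at -0.08 with LY500307 (edgeR adjusted p = 0.185). Several of these calls were lost under an alternative. With vehicle, the edgeR adjusted p of TAOK1 ranged from 0.00409 to 0.209 over the alternatives, and was 0.190 without control replicate 1, 0.209 without knockout replicate 2, 0.0556 with DESeq2 and 0.111 with library totals. For LATS2 with vehicle it ranged from 0.00596 to 0.0517, the highest without control replicate 2. With LY500307, that of LATS2 ranged from 0.00485 to 0.194, the highest without control replicate 1. That of LATS1 ranged from 0.000443 to 0.0664, the highest without knockout replicate 2. The TAOK1 value with LY500307 ranged from 0.0293 without control replicate 2 to 0.977 without control replicate 1.

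Among the upstream regulators, 6 of 8 tested were lower and 1 higher with vehicle, and 5 lower and 1 higher with LY500307. Over all genes, 33.3% were lower and 30.7% higher with vehicle, and 33.6% lower and 32.6% higher with LY500307. The largest decreases were those of WWC1 (KIBRA), a scaffold that activates LATS, and AMOTL2, an angiomotin that holds YAP at junctions and is also a known YAP target. WWC1 was at 192 and 193 CPM in control and 119 and 125 CPM in knockout cells with vehicle, a log2 change of -0.66 (edgeR adjusted p = 8.05e-14), and at -0.58 with LY500307. AMOTL2 was at 485 and 529 against 317 and 330.4 CPM with vehicle, a log2 change of -0.65 (edgeR adjusted p = 1.34e-14), and at -0.75 (edgeR adjusted p = 2.31e-16) with LY500307. Neither gene had overlapping groups. PTPN14, a phosphatase that binds YAP, was at 467 and 457 against 362 and 353 CPM with vehicle and at 374 and 377 against 283 and 294 CPM with LY500307, with log2 changes of -0.37 and -0.38. AMOTL1 fell by 0.20 and 0.30, and NF2 (merlin), the tumour suppressor that brings LATS to the membrane, fell by 0.18 and 0.14.

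Of the giant cadherins, FAT1 passed in neither comparison (log2 differences -0.11 and 0.04). FAT4 was called with vehicle (-0.27, edgeR adjusted p = 0.00131) but not with LY500307 (-0.11, edgeR adjusted p = 0.177). RASSF1, a scaffold that binds MST kinases, rose by 0.24 and 0.29. With vehicle, the edgeR adjusted p of FAT4 ranged from 0.000198 to 0.106 over the alternatives, the highest without control replicate 1. For RASSF1 with vehicle it ranged from 0.00188 to 0.131, being 0.0519 without control replicate 1 and 0.131 without knockout replicate 2. For NF2 with LY500307 it ranged from 0.00114 to 0.214, being 0.214 without control replicate 2, 0.154 without knockout replicate 1 and 0.0525 with library totals.

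**Figure D4:**
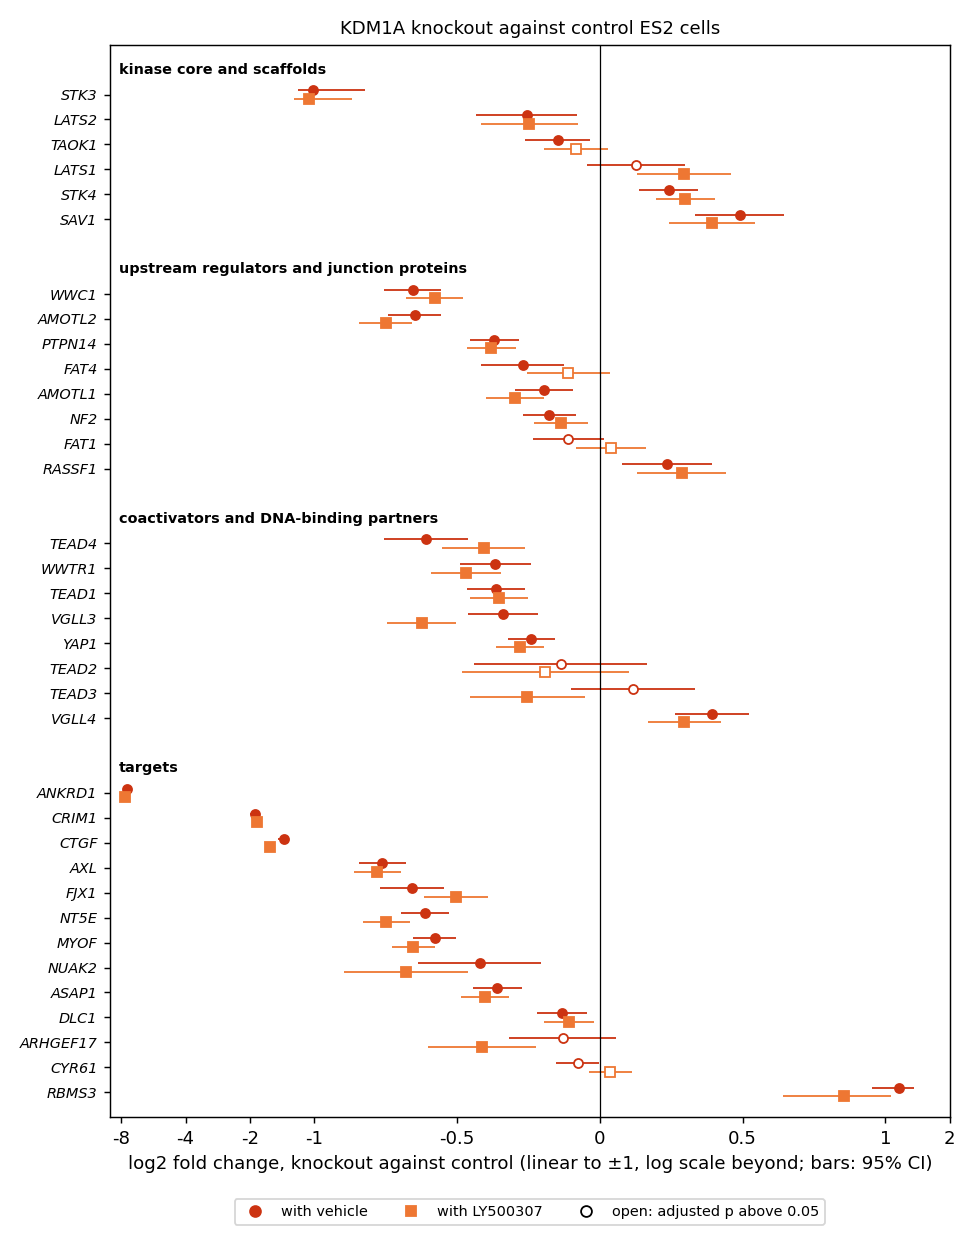
Log2 change of each tested member in knockout against control cells, with vehicle and with LY500307, ordered by role; points are fitted values, open where the test was not passed, bars are 95% intervals, and the x axis is linear to ±1 and logarithmic beyond. Targets lie mostly below 0, ANKRD1 lowest at -7.51 and -7.68, while STK4, SAV1, RASSF1, VGLL4 and RBMS3 lie above 0 under both treatments. The drawn interval of ANKRD1 is too narrow for its few knockout reads.

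The knockout and control populations also differed by chromosome arm, and these medians are given beside the members because 4 small decreases were no larger than that of their arm. With vehicle, the median log2 change of the genes on 8q was -0.36, on 13q -0.39, on 8p -0.25, on 17q -0.18 and on 3p 0.30. ASAP1, LATS2, DLC1 and TAOK1 did not lie below the median of their arm, and RASSF1, on 3p, did not lie above its own. The other 20 of 24 lower members lay below their arm median, among them 8 of the 10 lower targets, and 4 of the 5 higher members lay above theirs. STK3, on 8q, was at -1.01. VGLL3 was lower although its arm, 3p, had a positive median. CYR61, on 1p with a median of 0.28, differed from its arm by -0.36. ANKRD1 (chr10:92671853-92680844, minus strand, hg19), CTGF (chr6:132269316-132272512, minus strand) and CRIM1 (chr2:36582921-36778278, plus strand) were on arms with medians of 0.04, -0.06 and -0.12. The part of the arms in these differences was not tested.

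Other genes of the pathway were followed from 3 further lists. Like the members, these lists were chosen with earlier results of these data known, so they are not a separate check. Of 57 tested regulators of the Hippo pathway outside the members, 22 were higher and 22 lower with vehicle, where 30.7% of all genes were higher and 33.3% lower, with a median log2 change of 0.05. At 2-fold, 7 of them were lower and 0 higher, against 7.93% and 5.95% of all genes. The 4 with the smallest p were the protocadherin gene DCHS1 (-3.73), which encodes a partner of the FAT cadherins, FBXW11 (-0.70), a subunit of the ubiquitin ligase that marks YAP for degradation, the kinase NUAK1 (-2.05) and the polarity gene PARD3 (0.59). Of 37 other YAP and TAZ targets, 25 were lower and 10 higher with vehicle, with a median of -0.59, and 12 were lower and 3 higher by at least 2-fold, beside the same shares of all genes. Among those with the smallest p were THBS1 (log2 change -3.23), a matrix glycoprotein, CAV1 (-1.54), the coat protein of caveolae, and IGFBP3 (-4.34), which binds insulin-like growth factors. Of 29 genes of cytoskeletal tension and SRF output, 17 were lower and 7 higher with vehicle, with a median of -0.18. Those with the smallest p were ROCK2 (-0.77), ACTN4 (-0.50), VCL (-0.45) and ACTG1 (-0.39), and by size of decrease CNN1 (-3.70) and TPM2 (-0.98) came first. Under LY500307 the counts were 21 higher and 23 lower, 9 higher and 25 lower, and 6 higher and 19 lower in the same order. There, 32.6% of all genes were higher and 33.6% lower.

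LY500307 against vehicle gave smaller differences. In control cells 11 of 35 members were lower and 4 higher, against 14.0% and 12.3% of all genes, and none by 2-fold, as 1.71% of all genes were. The median over the members was -0.04, against 0.01 over all genes. The 11 decreases lay between -0.14 and -0.37 and the 4 increases between 0.18 and 0.52 on the log2 scale. In knockout cells 9 members were lower and 1 higher, against 11.3% and 9.16% of all genes, with a median of -0.09 against 0.01, and none reached 2-fold, as 0.778% of all genes did. The drug libraries lay wholly below the vehicle libraries for 18 members and wholly above for 7 in control cells (63.1% of all genes in either direction), and for 20 and 7 in knockout cells (58.4%). In both populations AXL, CTGF, FJX1, MYOF, NF2 and PTPN14 were lower, 6 members where 6.65% of all genes were lower in both. No member was higher in both, where 4.26% of all genes were. These splits depended on scaling: with library totals in place of TMM factors, 7 members were lower and 6 higher in control cells, and 6 lower and 2 higher in knockout cells.

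The targets did not move one way with the drug. ANKRD1 rose in control cells, from 436 and 432 CPM to 659 and 583 CPM, a log2 change of 0.52 ± 0.05 (edgeR adjusted p = 3.50e-09). In knockout cells it went from 2.88 and 1.97 CPM to 2.85 and 3.18 CPM, a log2 difference of 0.34 ± 0.18 that did not pass (edgeR adjusted p = 0.186). The drug groups overlapped only in knockout cells, where ANKRD1 was almost absent. CTGF fell in both populations with no overlap of libraries, by 0.19 among control (edgeR adjusted p = 0.000387) and by 0.41 among knockout libraries (edgeR adjusted p = 1.86e-09). CYR61 was at -0.01 in control cells (edgeR adjusted p = 0.932) and rose by 0.11 in knockout cells (edgeR adjusted p = 0.0350).

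MYOF fell by 0.20 and 0.27, AXL by 0.17 and 0.19 and FJX1 by 0.37 and 0.22 in control and knockout cells. The MYOF levels with the drug were 1713 and 1669 CPM in control and 1078 and 1072 CPM in knockout cells, and those of FJX1 were 115 and 119, and 81.1 and 83.9 CPM. CRIM1 fell in control cells, by 0.17 (edgeR adjusted p = 0.00552), and was at -0.12 in knockout cells (edgeR adjusted p = 0.0810). RBMS3 fell by 0.57 in knockout cells (edgeR adjusted p = 2.65e-05) and was at -0.27 in control cells (edgeR adjusted p = 0.0733). ARHGEF17 fell by 0.30 in knockout cells, from 24.7 and 27.4 CPM to 18.7 and 23.6 CPM (edgeR adjusted p = 0.0214), and was at -0.02 in control cells, where it was at 27.2 and 29.9 CPM with vehicle and 27.5 and 28.9 CPM with the drug. In control cells the edgeR adjusted p of CRIM1 ranged from 0.000559 to 0.106 over the alternatives and was 0.0628 without vehicle replicate 2 and 0.106 with library totals, with which AXL was also lost (0.0549, range 3.89e-05 to 0.0549). In knockout cells that of CYR61 ranged from 0.00105 to 0.310 and was 0.310 without vehicle replicate 2, 0.136 without drug replicate 1, 0.0618 without drug replicate 2, 0.0504 with DESeq2's size factors and 0.0973 with only the groups compared. That of ARHGEF17 ranged from 0.00180 to 0.378 and was 0.253 without vehicle replicate 2, 0.378 without drug replicate 1 and 0.0657 with library totals. For FJX1 it ranged from 0.000394 to 0.0862, the highest without vehicle replicate 2.

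Among the coactivators and partners, 3 of 8 rose in control cells, where 12.3% of all genes rose: TEAD3, VGLL3 and VGLL4. TEAD3 went from 12.2 and 12.9 CPM to 17.1 and 18.5 CPM, a log2 change of 0.50 ± 0.10 (edgeR adjusted p = 0.000463), and had the largest fitted increase of a member other than ANKRD1. In knockout cells its difference was 0.13 (edgeR adjusted p = 0.392), and the libraries overlapped. VGLL3 rose by 0.23 among control libraries (edgeR adjusted p = 0.00333) and was at -0.05 in knockout cells (edgeR adjusted p = 0.587). VGLL4 rose in control cells, by 0.18 (edgeR adjusted p = 0.0369), and was at 0.08 in knockout cells. YAP1 was at -0.10 in control cells (edgeR adjusted p = 0.0718) and fell by 0.14 in knockout cells (edgeR adjusted p = 0.0149). WWTR1, TEAD1, TEAD2 and TEAD4 passed in neither. For VGLL3 in control cells the edgeR adjusted p ranged from 0.000211 to 0.134 over the alternatives, the highest without drug replicate 1. For VGLL4 it ranged from 0.00384 to 0.385 and was 0.135 without vehicle replicate 1, 0.117 without vehicle replicate 2, 0.385 without drug replicate 2 and 0.0557 with DESeq2. That of YAP1 in knockout cells ranged from 0.00113 to 0.162 and was 0.129 without vehicle replicate 1 and 0.162 with library totals.

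Of the upstream regulators, 5 of 8 tested fell in control cells and 2 in knockout cells, where 14.0% and 11.3% of all genes fell. PTPN14 fell by 0.30 (control cells, edgeR adjusted p = 2.49e-06) and by 0.31 (knockout cells, edgeR adjusted p = 2.10e-06). NF2 fell by 0.19 (edgeR adjusted p = 0.00206), from 326 and 338 CPM to 280.5 and 300.3 CPM, and by 0.15 in knockout cells (edgeR adjusted p = 0.0178), from 292 and 295 CPM to 255 and 273 CPM. FAT1 fell by 0.24, FAT4 by 0.29 and RASSF1 by 0.22 in control cells. FAT1 went from 73.4 and 74.4 CPM to 60.6 and 64.7 CPM, FAT4 from 60.3 and 52.0 CPM to 44.3 and 47.6 CPM, and RASSF1 from 31.2 and 31.9 CPM to 26.2 and 27.8 CPM. In the kinase core, only STK4 was called, in control cells (log2 change -0.14, edgeR adjusted p = 0.0373), where it went from 142 and 130.1 CPM to 124 and 123 CPM. None of the core was called in knockout cells.

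Most of these small decreases lost their call under some alternative. In control cells the edgeR adjusted p of FAT1 ranged from 0.000781 to 0.0792 over the alternatives and that of NF2 from 7.38e-05 to 0.0824, each highest without drug replicate 1. That of FAT4 ranged from 0.000763 to 0.148 and was 0.148 without vehicle replicate 1 and 0.0636 without drug replicate 1. That of STK4 ranged from 0.0108 to 0.421 and was 0.421 without vehicle replicate 1, 0.115 without drug replicate 1 and 0.143 without drug replicate 2. RASSF1 (0.0181 to 0.213) was not called without any of the 4 libraries, at 0.0898 and 0.152 without vehicle replicates 1 and 2 and at 0.213 and 0.0598 without drug replicates 1 and 2. In knockout cells NF2 (0.00152 to 0.206) was not called without vehicle replicate 1 (0.0612), vehicle replicate 2 (0.115) or drug replicate 1 (0.206). With DESeq2 the adjusted p in control cells was 0.0567 for STK4 and 0.0769 for RASSF1. With library totals in edgeR it was 0.319 for STK4 and 0.156 for RASSF1, and 0.154 for NF2 in knockout cells.

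**Figure D5:**
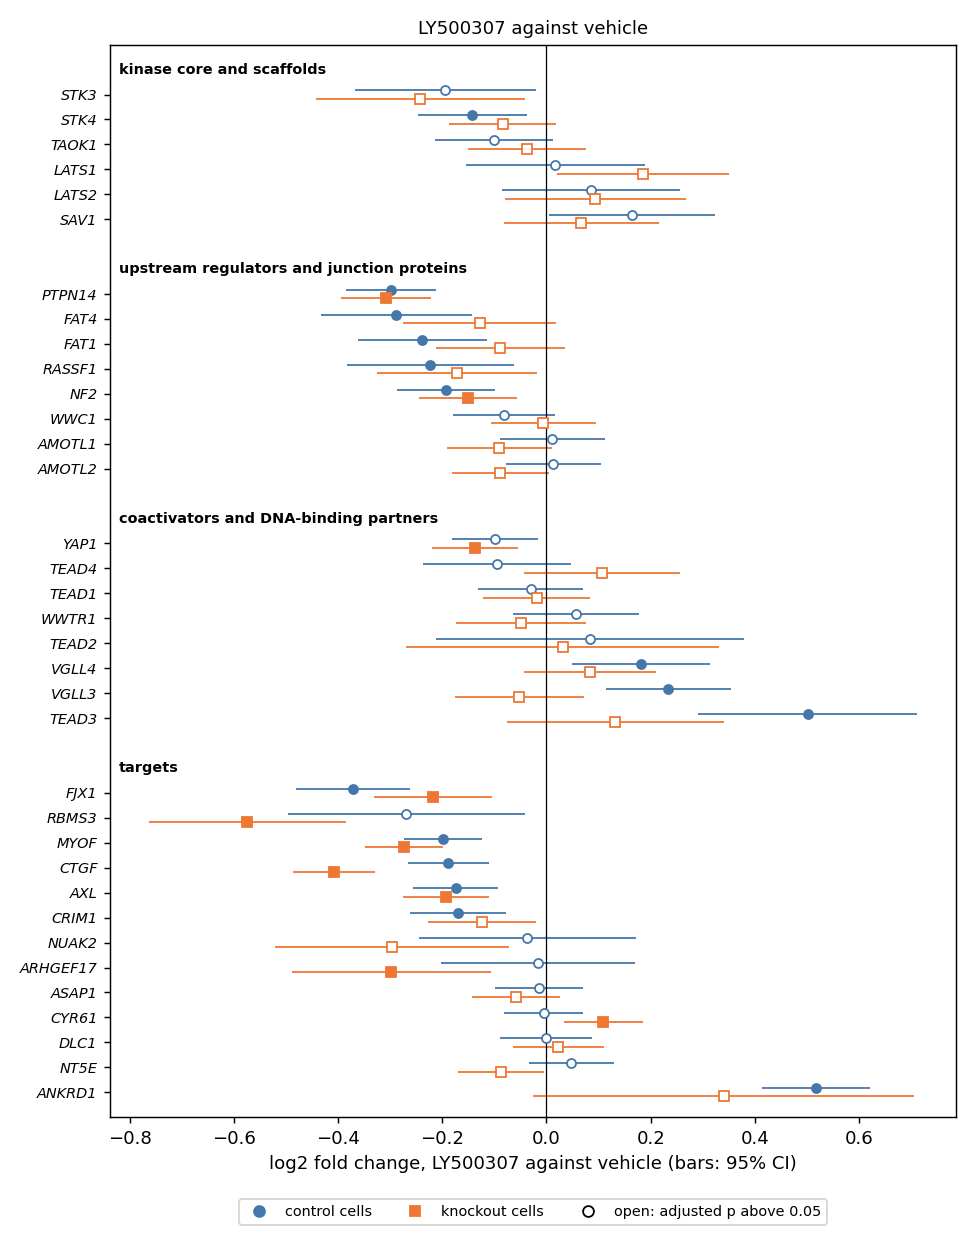
Log2 change of each tested member with LY500307 against vehicle, in control and in knockout cells, ordered by role; points are fitted values, open where the test was not passed, and bars 95% intervals. ANKRD1 and TEAD3 rise in control cells, by 0.52 and 0.50, and CTGF lies at -0.19 in control and -0.41 in knockout cells.

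Outside the members, 6 of 57 other Hippo regulators rose and 4 fell with LY500307 in control cells, and 6 rose and 6 fell in knockout cells. Over all genes 12.3% rose and 14.0% fell in control cells and 9.16% rose and 11.3% fell in knockout cells, so these counts lie close to or below those shares. Among those with the smallest p were RASSF4 (0.58), MARK4 (0.34) and TAOK2 (-0.26) in control cells and FRMD6 (-0.37), PPP2R1A (-0.21) and STK38 (0.26) in knockout cells. Of 37 other YAP and TAZ targets, 12 rose and 6 fell in control cells, among them EREG (0.53), ITGB5 (0.42) and THBS1 (0.34) upwards and FLNA (-0.30) downwards. In knockout cells 8 rose and 7 fell, among them SLIT2 (-0.91), EDN1 (-0.42), CAV1 (-0.31) and FLNA (-0.31) downwards. Of 29 genes of cytoskeletal tension and SRF output, 3 rose and 9 fell in control cells and 2 rose and 12 fell in knockout cells. TPM1 (0.33) rose and CFL1 (-0.28), ACTG1 (-0.26) and ACTB (-0.25) fell in control cells, and CFL1 (-0.36), MYH9 (-0.33), ACTN4 (-0.30) and MYLK (-0.30) fell in knockout cells.

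Whether the drug's effect differed between the populations was tested by the interaction, which asks if the log2 change with LY500307 in knockout cells departs from that in control cells. CTGF was the only 1 of 35 members to pass, in the lower direction, where 1.09% of all genes passed lower and 0.526% higher. Its interaction was -0.22 ± 0.05 (edgeR adjusted p = 0.0299), from the decreases of 0.19 and 0.41 above. The call was lost when any 1 of 7 of the 8 libraries was left out, all but replicate 1 of the knockout cells with LY500307, with the edgeR adjusted p between 0.0147 and 0.140 and the value between -0.25 and -0.20. VGLL3 (-0.29, edgeR adjusted p = 0.0775) and TEAD3 (-0.37, edgeR adjusted p = 0.212) did not pass with all libraries and the low-count filter, nor did ANKRD1 (-0.18, 95% interval -0.56 to 0.21, edgeR adjusted p = 0.730). The VGLL3 interaction passed without the low-count filter (edgeR adjusted p = 0.0338) and with the replicate number as a block (0.0161), over a range of 0.0161 to 0.330. The other members called under 1 treatment or in 1 population only are not shown to differ between them. At an unadjusted p at or below 0.05, 6 of 35 members were lower and 1 higher, as were 1009 and 941 of all 13498 genes. From the other lists, FRMD6 (-0.32), EREG (-0.38), ITGB5 (-0.33) and MYLK (-0.43, edgeR adjusted p = 9.14e-05) passed, all in the lower direction.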

How the data were processed

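The authors deposited 1 table of whole-number read counts per gene for each of the 8 libraries. Per the labels' protocols, libraries were made with a stranded mRNA kit and sequenced single-end; per the submitters' processing notes, bcl2fastq, TopHat2 2.0.8b, HTSeq and the hg19 build were used, without settings. Between 10.7% and 12.8% of reads fell in no gene and were left out.

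Counts were filtered with filterByExpr, scaled by TMM and fitted with edgeR 4.0.16 (quasi-likelihood test, 4 group means, all 8 libraries), with Benjamini-Hochberg adjustment over 13498 genes and a threshold of 0.05. The members, roles and lists were chosen with earlier results of these data known. Values in each library are given for members called at 2-fold or with LY500307 or in the interaction, for YAP1, WWTR1, the TEAD factors and the LATS kinases, and for some others, picked after their values were seen. From each further list, up to 4 genes with the smallest p are named; some are not reported here. Positions and exon lengths are from GENCODE 44 on hg19, each length joining the exons of all annotated transcripts of a gene. The code was tested on simulated data. Alternatives were DESeq2, other scaling, no filter, only the groups compared, a replicate block and leaving out each library. Each range of adjusted p over the alternatives covers all of these fits, the DESeq2 fit with its own test among them. Where such a range is named edgeR adjusted p, edgeR refers to the main fit and to the alternatives other than DESeq2.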

Additional observations from a re-analysis of the deposited data

Results flagged for a closer look

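The response of CTGF to LY500307 differed between knockout and control cells by the test of the difference itself, with an interaction of -0.22 on the log2 scale (edgeR adjusted p = 0.0299, n = 2 per group). CTGF was lower with the drug in every comparison of libraries in both populations. Leaving out any 1 of 7 of the 8 libraries ended the call, with the edgeR adjusted p between 0.0147 and 0.140 over the 8 fits.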

How the results depend on the processing

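Over the alternatives, 951 of 1029 values of single members and of KDM1A kept their direction and their side of the threshold. Of the rest, 68 no longer passed, 5 came to pass and 5 changed sign. KDM1A, which is not a member, was counted in the 2 knockout comparisons and kept its call throughout. The sign changes were of values that had not passed the test: CYR61 with LY500307 in control cells (0.0671 with library totals, and -0.0225 to 0.0114 on leaving out each library, the highest without vehicle replicate 1), ANKRD1 in the interaction (-0.447 to 0.0948 on leaving out each library, the highest without vehicle-treated knockout replicate 1), and TAOK1 (-0.163 to 0.00262) and FAT1 (-0.00811 to 0.0895) in knockout against control cells with LY500307, both changing sign without control replicate 1. The cause was not tested. With library totals, 7 members fell with LY500307 in control cells, and over all genes 2831 rose and 1011 fell, against 1665 and 1885 with TMM; in knockout cells it was 2288 and 953, against 1237 and 1522. The median over all genes moved by 0.08 and 0.07. The count of members that rose with LY500307 in knockout cells, 1, became 2 with library totals and with the replicate block and 0 with DESeq2's size factors and with only the groups compared. Members lower in the interaction became 2 without the filter and with the replicate block, and interaction calls over all genes, 218, became 350 and 643. Leaving out each library in turn, which leaves a group with 1 library assumed to vary like the others, gave 7 to 10 members lower with LY500307 in control cells and 0 to 1 higher in knockout cells. It gave 2161 to 2303 genes called in control cells (3550 with all libraries), 1413 to 2245 in knockout cells (2759), 93 to 256 in the interaction and 0 to 1 members lower in it. Replicate numbers did not pair the libraries (correlations of deviations from 0.000614 to 0.0700), so the block is a shared number only. Depth limits the members with few reads: with vehicle, the standard error of the knockout change was 0.15 for TEAD2, 0.11 for NUAK2 and 0.10 for RBMS3, against 0.04 for CYR61 and MYOF.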
